A study of Sus scrofa with 9 samples.

Results

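The miR-17-92 cluster and its X-linked paralog, the miR-106a-363 cluster, were followed in pig spleen at 3 postnatal ages. Members were taken by name: every entry for ssc-miR-17, ssc-miR-18a, ssc-miR-18b, ssc-miR-19a, ssc-miR-19b, ssc-miR-20a, ssc-miR-20b, ssc-miR-92a, ssc-miR-106a or ssc-miR-363 (ssc, for pig, is left out from here on), from any precursor and either arm, which gave 20 of the 975 entries used (10 guide and 10 passenger arms). The spleens came from Ningxiang pigs, a native Chinese breed, at day 30, day 90 and day 210 after birth, with 3 small RNA libraries per age and no treatment or genotype in the labels. Whether the 3 libraries of an age stand for 3 animals is not in the labels, so a p-value here speaks of the variation among libraries, which may be technical. In a bulk organ, fewer cells of a type and less miRNA per cell cannot be told apart.

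A miRNA precursor is a hairpin from which the enzyme Dicer cuts a short duplex. The guide arm is usually kept by an Argonaute protein and pairs with target mRNAs through its seed, bases 2 to 8 from the 5′ end, while the passenger arm is mostly degraded. The miR-17-92 cluster is a target of the transcription factor MYC. It is known for promoting proliferation and survival of lymphocytes, in part by repressing the pro-apoptotic gene BCL2L11 (BIM). In the RefSeq annotation of Sscrofa11.1 the 6 precursors MIR17, MIR18A, MIR19A, MIR20A, MIR19B-1 and MIR92A-1 neighbour each other on an autosome, and the 6 precursors MIR106A, MIR18B, MIR20B-1, MIR19B-2, MIR92A-2 and MIR363-1 do so on X. The passenger entries mir-20b-2-p3 and mir-363-2-p5 carry a precursor number not among those annotated on X, and were assigned to the X-linked cluster by name. miR-19b and miR-92a are encoded in both clusters, so reads of their mature guides cannot be assigned to either.

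The 10 guides fall into 4 seed families, and their sequences show how close the paralogs are. They are given 5′ to 3′ as in the deposited table, in DNA letters, with the seed in capitals.
miR-17-5p: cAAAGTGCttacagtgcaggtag
miR-20a-5p: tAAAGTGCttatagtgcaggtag
miR-20b: cAAAGTGCtcacagtgcaggtag
miR-106a: aAAAGTGCttacagtgcaggtag
miR-18a: tAAGGTGCatctagtgcagatag
miR-18b: tAAGGTGCatctagtgcagtt
miR-19a: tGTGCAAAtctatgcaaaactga
miR-19b: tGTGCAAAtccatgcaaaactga
miR-92a: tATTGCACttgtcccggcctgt
miR-363: aATTGCACggtatccatctgta
With positions counted from 1 at the 5′ end, miR-17-5p differed from miR-106a by C1A and from miR-20b by T10C, miR-18a from miR-18b by A20T over the 21 bases both hold, and miR-19a from miR-19b by T11C. Reads of such pairs can be split unevenly by 1 miscalled base, and how the authors' counting treated them is not given in the sources used here, so levels within a pair are uncertain. miR-92a and miR-363 share a seed and differ at 12 of 22 bases. The other entries of the table with a guide's seed were miR-92b-3p and miR-32, both with that of miR-92a.

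All values are normalised read numbers scaled per library by the authors, not raw counts. Read from the steps between low values, and taking the commonest low value of a library as 5 reads, the libraries held 4.50 to 9.25 M reads. That commonest low value was 5.33, 6.46 and 8.001 in day 210 replicates 1, 2 and 3 and between 3.62 and 5.08 in the other 6 libraries, and most sequences below it are listed at 0, so values under about 10 are close to the limit of detection, most of all at day 210. Replicate 3 of day 210 was the shallowest library and stood apart from the other day 210 libraries in the members' values, as described below. Spleen markers were present: the lymphoid miRNAs miR-150, miR-155 and miR-342 summed to between 106237 and 173893 in a library, and none of the matched marker entries was at 0 throughout, including striated muscle (5464 to 14587), epithelial (163 to 719) and liver miRNAs (105 to 233). All values of a library summed to 6403776 ± 219288 on day 30 (mean ± SD, n = 3), to 6702883 ± 316365 on day 90 and to 7520894 ± 339135 on day 210. Scaling every library to an equal sum moved the median log2 difference over all tested entries from -0.15 to -0.38 between day 210 and day 30, and from -0.14 to -0.30 between day 210 and day 90.

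The guides of the miR-92 seed family made up most of both clusters. miR-92a averaged 83856 over the 9 libraries and ranked 17 of 975 entries, and miR-363 averaged 40096 and ranked 35. Together they held between 82.3% and 92.1% of the members' summed value. All 20 members together held 2.30 ± 0.0779% of a library's values at day 30, 2.19 ± 0.182% at day 90 and 1.83 ± 0.0821% at day 210, and each day 210 library lay below every earlier one. Summed values of the members overlapped, at 136558 to 156180 on day 30, 139267 to 152204 on day 90 and 125445 to 144753 on day 210. The library sums by which the share divides were highest at day 210. This share is a sum over the members and was not tested.

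Levels of the guides spanned more than 4 orders of magnitude although each cluster is transcribed as 1 primary transcript. Below miR-363 came miR-17-5p (mean 9440.2, range 5648 to 11631 over the 9 libraries), miR-20a-5p (3351, 1748 to 4727), miR-20b (3313, 1954 to 3942) and miR-106a (2624, 1537 to 3108). The miR-19 guides, which carry much of the cluster's oncogenic activity in mouse lymphoma models, were scarce: miR-19b averaged 227 (118 to 389.96) and miR-19a 3.37 (0 to 18.7, above 0 in 3 of 9 libraries). miR-18a averaged 74.6 (14.2 to 136) and miR-18b 6.34 (0 to 11.9). miR-20a-5p lay above miR-20b in 4 of 9 libraries and miR-18b above miR-19a in 5 of 9, so these neighbours did not differ beyond their spread. Every other neighbour in the order was higher in 9 of 9 libraries. The order is one of reads, which need not be that of molecules.

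**Figure D1:**
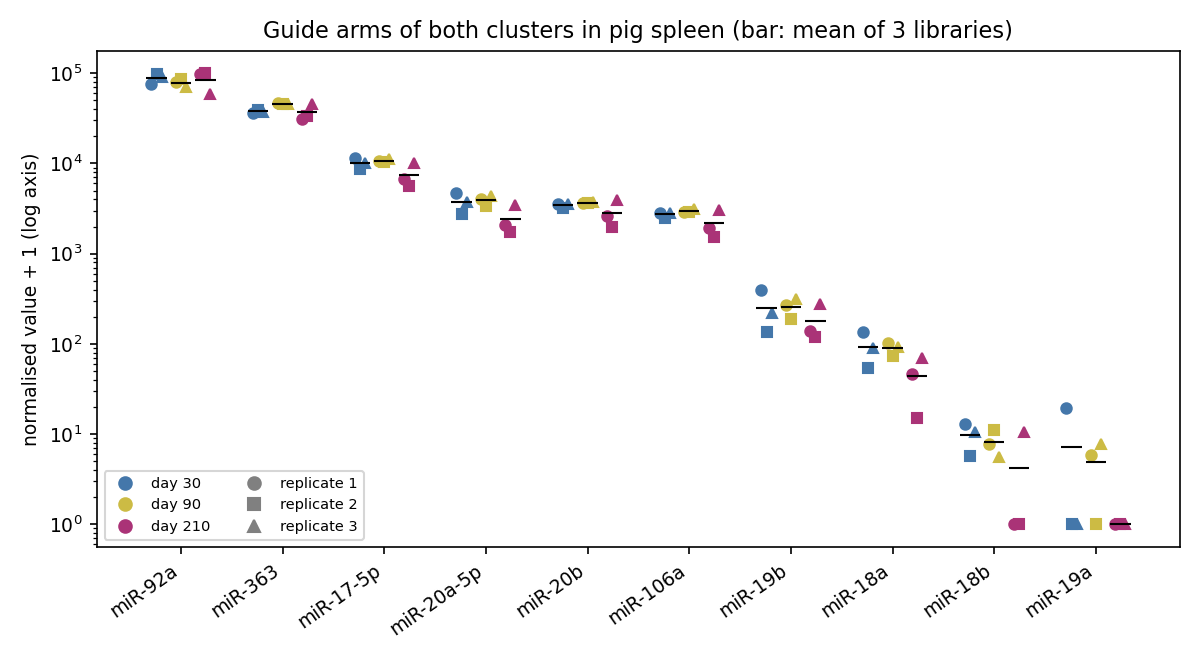
Normalised value + 1 (log axis) of the 10 guide arms in each of 9 libraries, coloured by age, with 1 marker shape per replicate number and a bar at the mean of 3. miR-92a and miR-363 sit highest, and in the guides from miR-17-5p to miR-18b the day 210 triangle (replicate 3) lies above the other day 210 points.

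Paralogs were compared within each library by log2 ratios of value + 1, with exact two-sided sign-flip permutation tests over the 9 libraries, adjusted over 4 pairs. The smallest p such a test allows is 0.00391. miR-17-5p exceeded miR-106a in 9 of 9 libraries by 3.59-fold (log2 1.84 ± 0.08, mean ± SD, n = 9, exact permutation adjusted p = 0.00521). miR-92a exceeded miR-363 in 9 of 9 by 2.08-fold (log2 1.06 ± 0.43, exact permutation adjusted p = 0.00521). miR-18a exceeded miR-18b in 9 of 9 (log2 3.60 ± 0.87, exact permutation adjusted p = 0.00521), though miR-18b was listed at 0 in 2 libraries. miR-20a-5p and miR-20b differed by less than their spread (log2 -0.02 ± 0.25, exact permutation adjusted p = 0.793).

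The ratio of miR-17-5p to miR-106a had the smallest SD of the 4 pairs and was 3.71-fold, 3.58-fold and 3.48-fold at days 30, 90 and 210. That of miR-92a to miR-363 was 2.33-fold at day 30, 1.70-fold at day 90 and 2.28-fold at day 210. The day 90 ratios of miR-92a to miR-363 were all below those of day 30 (log2 difference -0.45, exact permutation p = 0.1, adjusted p = 0.4). Likewise the day 210 ratios of miR-20a-5p to miR-20b were all below those of day 90 (log2 difference -0.31, exact permutation p = 0.1, adjusted p = 0.4). With 3 libraries against 3 no such test can go below 0.1, so none of these age differences in ratio could pass.

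Between day 30 and day 90 no guide passed the test. In replicates 1, 2 and 3, miR-363 had 36296, 39411 and 37465 on day 30 and then 46199, 45715 and 45369 on day 90. All 3 day 90 libraries lay above those of day 30, and the difference did not pass (log2 0.28 ± 0.14 SE, adjusted p = 0.395 by limma, here and below over all 630 entries tested). The cluster mates miR-20b (log2 0.10 ± 0.22, adjusted p = 0.918) and miR-106a (log2 0.13 ± 0.22, adjusted p = 0.872) also had no overlap between the ages, with higher values at day 90. miR-92a stood at 76107, 98579 and 89894 at day 30 and at 79106, 85271 and 70359 at day 90, and the ages overlapped (log2 -0.17 ± 0.21, adjusted p = 0.798). By limma 0 of the 19 tested members passed at an adjusted p of 0.05 beside 7 of all 630 entries (1.11%), and 1 member had an unadjusted p under 0.05, beside 15.2% of all entries. The 2 ages did not overlap for 4 members with day 90 higher and 1 with day 90 lower, beside 14.1% and 13.8% of all entries. The member left untested was miR-19a.

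That 1 member was a passenger arm, mir-106a-p3, the arm opposite miR-106a, shown here with its seed in capitals.
mir-106a-p3: tACTGCAAtgcaagcacttctt
It stood at 12.7, 13.4 and 15.9 at day 30, at 45.1, 44.7 and 38.01 at day 90 and at 13.9, 20.7 and 20.8 at day 210. The day 90 libraries lay above all 6 others. The difference between day 90 and day 30 was 1.54 ± 0.37 on the log2 scale (adjusted p = 0.107) and that between day 210 and day 90 was -1.18 ± 0.37 (adjusted p = 0.0799), so neither passed. The first passed, with adjusted p between 0.0102 and 0.0415, in 5 of 18 alternatives: with a common floor (every value under 8.001 set to 8.001), without the mean-variance trend, with limma's sample weights, with only the ages compared in the fit, and without day 210 replicate 3. The second passed in 4 of 18 (adjusted p at least 0.0200). Its guide miR-106a had 2845, 2508 and 2826 on day 30 and then 2911, 2907 and 3108 on day 90, so the ratio of guide to passenger was 182-fold at day 30, 68.4-fold at day 90 and 109-fold at day 210. The passenger values of days 30 and 210 lay within a few times the commonest low value, so these folds rest on few reads.

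At day 210 the libraries disagreed about the guides of the miR-17 seed family, which repress cell cycle inhibitors such as CDKN1A in human cells. miR-17-5p stood at 11631, 8689 and 10198 at day 30, at 10635, 10264 and 11105 at day 90, and at 6690.2, 5648 and 10102 at day 210. Replicates 1 and 2 of day 210 lay below all 6 earlier libraries, and replicate 3 lay among those of day 30. miR-20a-5p showed the same arrangement with replicates 1 and 2 at 2065 and 1748 and replicate 3 at 3419, against 2773 to 4727 at day 30 and 3349 to 4309.7 at day 90.

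The X-linked guides did so too. miR-106a stood at 1939, 1537 and 3038 at day 210, against 2508 to 3108 in the 6 earlier libraries. miR-20b stood at 2609, 1954 and 3942, against 3230.01 to 3744, so its replicate 3 was the highest of all 9 libraries. miR-18a, the scarcer guide with a related seed, stood at 45.9, 14.2 and 68.8 at day 210, against 136, 52.5 and 89.1 at day 30 and 102, 72.2 and 91.2 at day 90.

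None of these guides passed the test between day 210 and an earlier age. Against day 30 the log2 differences were -0.48 ± 0.21 for miR-17-5p (adjusted p = 0.159), -0.66 ± 0.27 for miR-20a-5p (adjusted p = 0.139) and -1.24 ± 0.56 for miR-18a (adjusted p = 0.170). The X-linked miR-20b stood at -0.33 ± 0.22 (adjusted p = 0.356) and miR-106a at -0.38 ± 0.22 (adjusted p = 0.287). Against day 90 miR-17-5p was at -0.56 ± 0.21 (adjusted p = 0.122), with all 3 day 210 libraries lower, and miR-20a-5p at -0.75 ± 0.27 (adjusted p = 0.117). miR-106a was at -0.51 ± 0.22 (adjusted p = 0.176), miR-20b at -0.44 ± 0.22 (adjusted p = 0.232) and miR-18a at -1.27 ± 0.56 (adjusted p = 0.179). miR-19b overlapped in both comparisons (log2 -0.44 ± 0.44, adjusted p = 0.547, and -0.61 ± 0.44, adjusted p = 0.397).

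Which guides passed changed with the day 210 library left out. Without day 210 replicate 3, the log2 difference from day 30 was -0.72 for miR-17-5p (adjusted p = 0.0155), -0.94 for miR-20a-5p (adjusted p = 0.0227), -0.60 for miR-20b (adjusted p = 0.0248) and -0.66 for miR-106a (adjusted p = 0.0171). miR-18a against day 30 (adjusted p = 0.0583) and miR-19b in both comparisons (adjusted p = 0.190 and 0.128) still did not pass. In that fit 7 members passed between day 210 and day 30 and 11 between day 210 and day 90, all lower at day 210. Calls rose over the whole table too, to 90 of 621 entries against day 30 (51 of them, or 8.21% of all entries, lower) and 112 of 621 against day 90 (68, or 11%, lower), from 58 and 51 of 630. Without day 210 replicate 2 the values moved the other way. Against day 30 they were -0.30 for miR-17-5p (adjusted p = 0.403), -0.46 for miR-20a-5p (adjusted p = 0.337), -0.095 for miR-20b (adjusted p = 0.814), -0.17 for miR-106a (adjusted p = 0.658) and -0.61 for miR-18a (adjusted p = 0.419). With limma's sample weights and all 9 libraries, miR-17-5p, miR-20a-5p, miR-20b and miR-106a passed against both ages (adjusted p between 0.0152 and 0.0440) and miR-18a against day 30 (adjusted p = 0.0498). The weights also raised calls over the whole table, to 109 of 630 entries against day 30 (56 lower) and 100 of 630 against day 90 (55 lower). The depth of replicate 3 was 4.50 M reads against 6.10 M reads and 7.01 M reads in the other day 210 libraries. miR-451, an erythroid miRNA, was 20851 there against 7529.6 and 5005 in replicates 1 and 2, while miR-486, also erythroid, was 3591 against 5694 and 3117. All 4 erythroid entries summed to 24509 in replicate 3 and to 13294 and 8179 in replicates 1 and 2, within a range of 8179 to 24509 over the 9 libraries. Entries of white blood cells differed there too. mir-142-p5, of all blood cells, was 23842 in replicate 3 against 12765 and 11139 in replicates 1 and 2. The lymphoid miR-155-5p was 5896 against 4039 and 3119. The lymphoid miR-150 (89681 against 89536 and 95280) and the myeloid miR-223 (5458 against 6354 and 4776) lay between the values of replicates 1 and 2. The part of depth, red cell content or other blood cell content in the members' values was not tested.

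miR-92a, the most abundant guide, had another arrangement. It stood at 96950.2, 99867 and 58573 at day 210, so replicates 1 and 2 were among the 3 highest libraries and replicate 3 was the lowest of all 9. Its log2 difference was -0.08 ± 0.21 from day 30 (adjusted p = 0.812) and 0.09 ± 0.21 from day 90 (adjusted p = 0.804), and both signs turned in some alternatives, the latter also with equal library sums (-0.08). miR-363, with the same seed, stood at 31444, 33478 and 45488, below all earlier libraries in replicates 1 and 2 and within the day 90 range in replicate 3 (log2 -0.05 ± 0.14 from day 30, adjusted p = 0.831, and -0.33 ± 0.14 from day 90, adjusted p = 0.176). Centred on their own means and averaged over the 9 tested guides, the libraries lay at -0.61, -0.93 and 0.21 at day 210 and between -0.11 and 0.46 at the earlier ages. This average includes miR-18b, which is near the limit of detection. Its listing at 0 in day 210 replicates 1 and 2 lowers the average there. Pearson's r of single guides with that mean over the 9 libraries ran from 0.69 (miR-363) to 0.996 (miR-17-5p), and was -0.65 for miR-92a; each guide is itself part of the mean, and the points share libraries and depth.

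**Figure D2:**
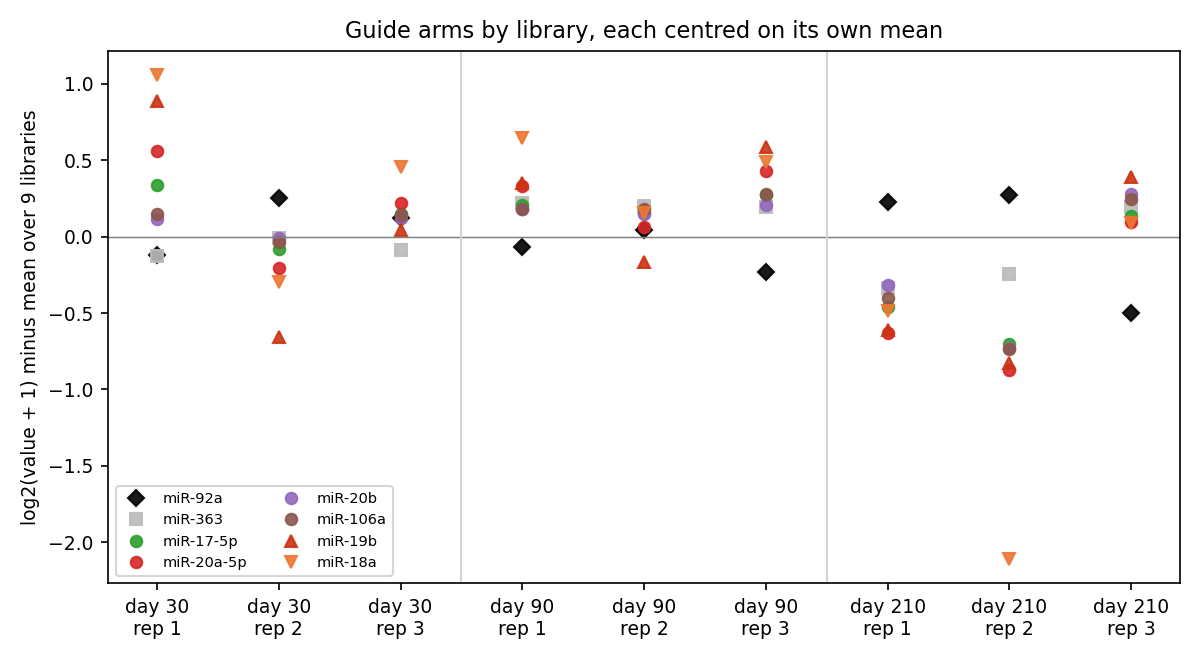
log2(value + 1) of 8 guide arms in each library, centred on each guide's mean over the 9 libraries; miR-18b and miR-19a, near the limit of detection, are left out. In day 210 replicates 1 and 2 the guides other than miR-92a lie below 0 and miR-92a above it, and in replicate 3 the order is turned.

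Outside the clusters, the pig miRNAs closest to the mean profile of the tested guides, among 387 compared, were mir-223-p5 (r = 0.98), miR-130b-3p (0.97), miR-582-3p (0.95), miR-30e-5p (0.93) and miR-21-5p (0.92), each over the same 9 libraries. mir-223-p5 stood at 5.33, 0 and 44.8 at day 210, so replicates 1 and 2 were at the limit of detection. The mean profile holds zeros of miR-18b in the same libraries. miR-130b-3p values were 457, 429 and 459 on day 30, then 469, 428 and 453 on day 90, and 304, 249 and 458 at day 210. It thus had the same low replicates 1 and 2 at day 210. miR-21-5p, a miRNA induced in activated immune and tumour cells, stood at 41662, 33838 and 84162 at day 210 and between 45928 and 85377 earlier.

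Among the 10 precursors with both arms in the table, the guide exceeded the passenger in 9 of 9 libraries for 8. The ratios were tested by exact two-sided sign-flip permutation over the 9 libraries, adjusted over the 10 precursors. miR-17-5p lay 36.0-fold above miR-17-3p with little spread (log2 5.17 ± 0.12, mean ± SD, n = 9), miR-106a 111-fold above its passenger, miR-92a 780-fold above mir-92a-1-p5 and miR-363 874-fold above mir-363-2-p5 (exact permutation adjusted p = 0.00434 for each). The passengers of miR-19b, miR-20a, miR-20b and the X-linked miR-92a-2 precursor were listed at 0 in 6, 2, 3 and 4 libraries, so their ratios, also with an adjusted p of 0.00434 by the exact permutation test, depend on the pseudocount of 1 and no fold is given. Passengers held between 0.268% and 0.646% of the members' summed value.

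The miR-18 precursors had the opposite balance. The sequences of their 3p arms, with the seed in capitals, were
mir-18a-p3: aCTGCCCTaagtgctccttct
mir-18b-p3: tACTGCCCtaaatgccccttct
mir-18a-p3 values were 296, 260.4 and 235 on day 30, then 225, 221 and 211 on day 90, and 245, 152 and 140.8 at day 210, and so lay above miR-18a in 9 of 9 libraries. It was 3.30-fold above the arm usually taken as the guide (log2 of guide over passenger -1.72 ± 0.79, range -3.33 to -1.02, exact permutation adjusted p = 0.00434). For miR-18b the guide was higher in 2 of 9 libraries, both arms were listed at 0 in day 210 replicate 2, and the passenger was higher in the others (log2 -1.08 ± 1.76, exact permutation adjusted p = 0.0469). All values of this passenger lay between 0 and 38.4, and the call ended in 7 of 11 alternatives, the common floor among them (adjusted p = 0.0781).

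**Figure D3:**
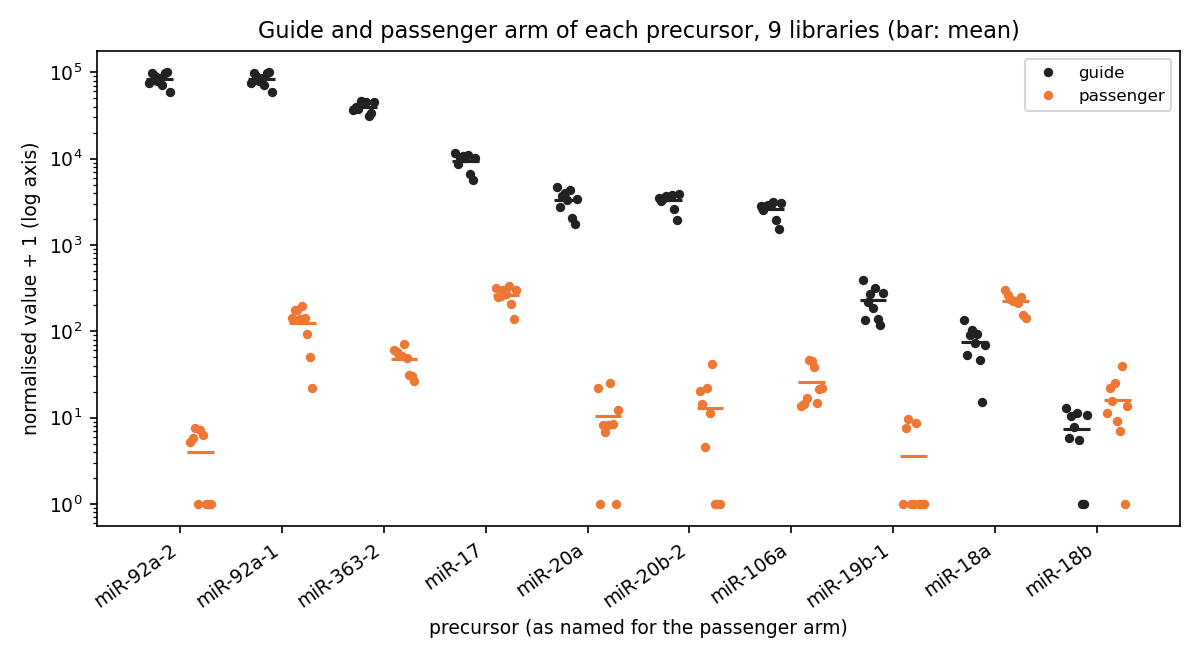
Normalised value + 1 (log axis) of the guide (black) and passenger arm (orange) of each of 10 precursors in 9 libraries, with bars at the means. Passengers lie below guides except for miR-18a and miR-18b. miR-92a is drawn for both of its precursors.

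At day 210 the only members that passed the test were 2 passenger arms, both lower. Their sequences, with the seed in capitals, were
mir-92a-1-p5: aGGTTGGGatcggttgcaatgct
mir-20b-2-p3: tCTACTGTagtgtgggcactt
mir-92a-1-p5, the passenger of the miR-17-92 copy of miR-92a, stood at 141.7, 175 and 174 at day 30, at 138, 193 and 140.6 at day 90, and at 91.7, 49.1 and 20.8 at day 210. The day 210 libraries lay below every earlier one. It fell by 1.81 ± 0.46 on the log2 scale from day 30 (adjusted p = 0.0377) and by 1.75 ± 0.46 from day 90 (adjusted p = 0.0457). Both calls were close to the threshold and ended in 11 of 18 alternatives each, with adjusted p up to 0.135 and 0.167; leaving out any library of days 30 or 90, or day 210 replicate 2, ended both.

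mir-20b-2-p3, the passenger of miR-20b, stood at 19.5, 13.4 and 3.62 at day 30, at 21.1, 10.2 and 41.05 at day 90, and was listed at 0 in all 3 day 210 libraries (adjusted p = 0.0229 against day 30 and 0.0128 against day 90). Most of its values lay within a few times the commonest low value, and it passed the filter through days 30 and 90 alone. With the common floor the difference from day 30 was -0.62 (adjusted p = 0.470) and that from day 90 was -1.28 (adjusted p = 0.168), and neither passed. Without day 30 replicate 1, day 30 replicate 2 or day 210 replicate 2 the call against day 30 ended, and without day 90 replicate 1 that against day 90 did (adjusted p between 0.0621 and 0.104).

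In all, 2 of the 19 tested members passed against day 30 (0 higher, 2 lower), beside 58 of 630 entries (9.21%; 4.6% lower), and 2 of 19 against day 90 (0 higher, 2 lower), beside 51 of 630 (8.1%; 3.97% lower). The libraries of both ages did not overlap, with day 210 lower, for 4 of the 19 members against day 30 and for 6 of 19 against day 90, beside 18.1% and 15.9% of all entries. Of the 19, 18 had lower values at day 210 in each comparison, beside 57.8% and 56.7% of all entries, and the medians were -0.59 and -0.75 on the log2 scale beside -0.15 and -0.14. The members share transcripts and libraries, so these counts describe the list. Some, such as mir-20b-2-p3, mir-92a-2-p5 and mir-19b-1-p5, reached the filter value of 5 only at the earlier ages, which favours lower values at day 210. Of these, mir-20b-2-p3 is 1 of the 2 members that passed in each comparison. Some markers of other cell types differed at the same age. Against day 30 the lymphocyte miRNA miR-150 was higher (log2 0.94 ± 0.12, adjusted p = 0.00388), as were the smooth muscle miRNA miR-145-5p (0.78 ± 0.17, adjusted p = 0.0232) and the epithelial miR-205 (2.59 ± 0.63, adjusted p = 0.0324), while the erythroid miR-486 (-1.23 ± 0.21, adjusted p = 0.00873) and mir-144-p5 (-1.54 ± 0.36, adjusted p = 0.0266) were lower. Against day 90 miR-145-5p (1.17 ± 0.17, adjusted p = 0.00683), the lymphocyte miR-342 (0.56 ± 0.12, adjusted p = 0.0205) and the striated muscle miR-133a-3p (1.04 ± 0.20, adjusted p = 0.0185) were higher. No other tested marker entry passed in either comparison. Against day 30 these included the epithelial miR-141 (-0.67 ± 1.01, adjusted p = 0.694) and miR-200b (0.005 ± 0.51, 0.995), the erythroid miR-451 (0.03 ± 0.49, 0.978) and mir-342-p5 (-0.47 ± 0.18, 0.128). The smooth muscle miR-143-5p was also lower there (-0.17 ± 0.16, adjusted p = 0.532), opposite to miR-145-5p. The erythroid miR-144 (-1.23 ± 0.35, adjusted p = 0.0542) and miR-342 (0.33 ± 0.12, 0.0920) had the direction of the entries of their lists that passed. Against day 90 the lymphoid miR-155-5p (-0.35 ± 0.22, adjusted p = 0.321) and mir-342-p5 (-0.08 ± 0.18, 0.795) lay opposite to miR-342. miR-150 (0.20 ± 0.12, adjusted p = 0.316) had the direction of miR-342. The summed lymphoid entries lay between 170801 and 173893 at day 210 and between 106237 and 152425 earlier, and those of smooth muscle between 1274003 and 1532620 and between 813448 and 1111918. The part of these cell types in the members' values was not tested.

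mir-363-2-p5, the passenger of miR-363, had a close spread and did not pass with the settings used throughout. It stood at 59.4, 56.3 and 51.4 at day 30, at 50.8, 70.1 and 47.9 at day 90, and at 29.9, 29.7 and 25.6 at day 210, with no overlap. Its log2 differences were -0.95 ± 0.30 from day 30 (adjusted p = 0.0708) and -0.95 ± 0.30 from day 90 (adjusted p = 0.0865). It passed against day 30 with equal library sums (adjusted p = 0.0350), the common floor (0.0390) and no mean-variance trend (0.0327), and against day 90 with the common floor (0.0422) and no trend (0.0449). mir-18a-p3 was at -0.59 ± 0.25 and -0.33 ± 0.25 (adjusted p = 0.151 and 0.418), and miR-17-3p at -0.42 ± 0.28 and -0.55 ± 0.28 (adjusted p = 0.363 and 0.235). In miR-17-3p the day 210 values of 207, 137 and 298 repeated the arrangement of its guide, with the ages overlapping. The remaining passengers, mir-18b-p3, miR-20a-3p, mir-92a-2-p5 and mir-19b-1-p5, lay between 0 and 38.4 in the 9 libraries, and none passed in any comparison.

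**Figure D4:**
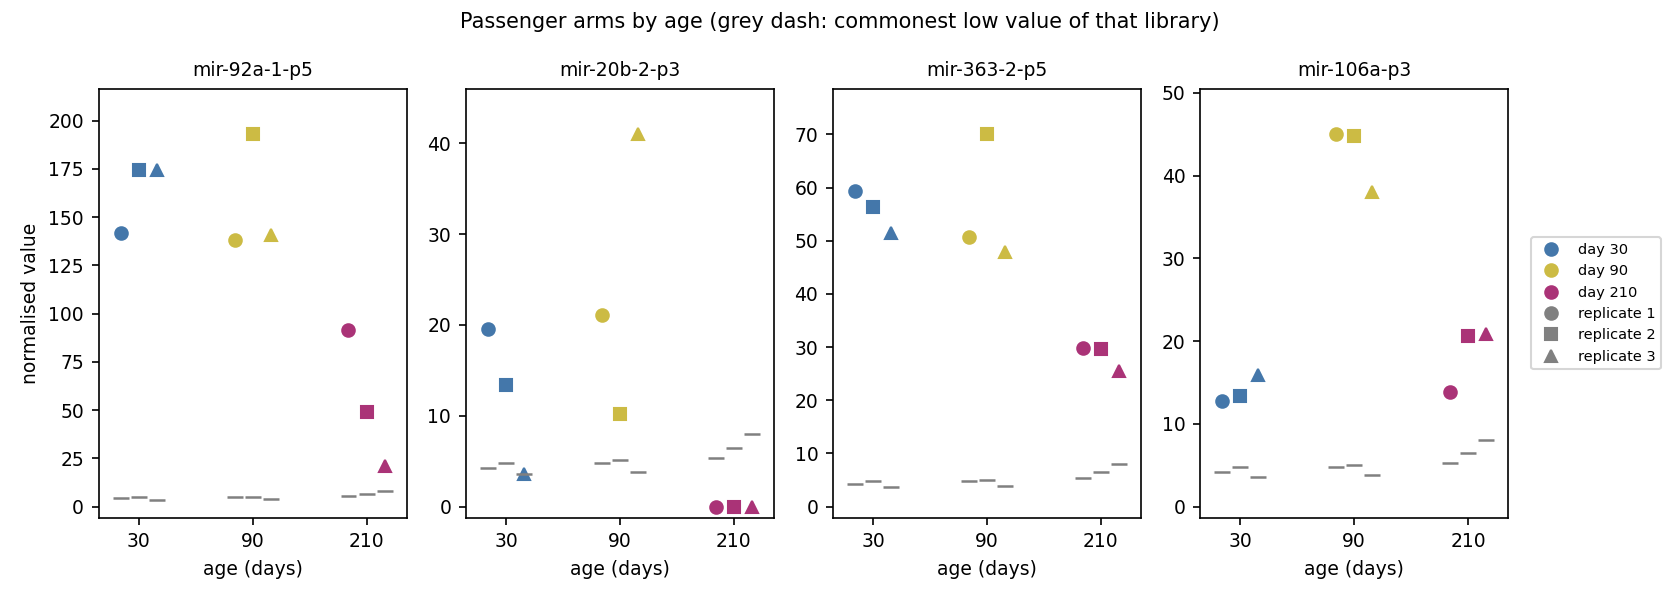
Normalised values of 4 passenger arms by age in days, with 1 marker shape per replicate number; grey dashes mark the commonest low value of each library, taken as 5 reads. mir-92a-1-p5 and mir-363-2-p5 are lowest in the 3 day 210 libraries, mir-20b-2-p3 is at 0 there, and mir-106a-p3 is highest at day 90.

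The balance of arms was examined next across ages. The ratio of miR-92a to mir-92a-1-p5 was 535-fold at day 30, 499-fold at day 90 and 1776-fold at day 210, with the 3 day 210 libraries above all others (log2 difference 1.73 from day 30 and 1.83 from day 90, p = 0.1 by exact permutation in both, the lowest this design allows, adjusted p = 0.2 and 0.333). In a limma fit added after the data were seen, over 149 arm pairs of pig miRNAs, this shift passed against day 30 (adjusted p = 0.0259, beside 10.7% of all pairs) and against day 90 (adjusted p = 0.0227, beside 4.7%). It passed in 5 and 4 of the 9 fits that left out 1 library (adjusted p at most 0.104 and 0.0857). miR-92a can come from either cluster and mir-92a-1-p5 from the autosomal copy, so the ratio does not compare arms of 1 hairpin alone.

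The ratio of miR-20b to mir-20b-2-p3 also passed in that fit (adjusted p = 0.0259 and 0.0190), with the passenger at 0 at day 210. This passenger reached the filter value of 5 at days 30 and 90 alone, so the pair's entry into the fit favoured such a shift. Leaving out 1 library, this ratio passed in 5 and 6 of 9 fits, and with the common floor its log2 differences of 3.14 and 4.01 shrank to 0.29 and 0.84. The ratio of miR-363 to mir-363-2-p5 was 666-fold and 810-fold at days 30 and 90 and 1239-fold at day 210, and the difference did not pass in that fit (adjusted p = 0.0638 and 0.196). For miR-17 the guide to passenger ratio was 36.9-fold, 35.6-fold and 35.5-fold at days 30, 90 and 210 (log2 difference between day 210 and day 30 -0.06, exact permutation p = 0.7). Between day 90 and day 30 the fit called 0 of 149 pairs, with 22 at an unadjusted p under 0.05; the ratio of miR-106a to mir-106a-p3 had an adjusted p of 0.0812.

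Of the related list of another paralog cluster (miR-106b, miR-93 and miR-25) and miR-92b, only the arms of miR-92b matched the table, and the others were not analysed here. miR-92b-3p, which shares its seed with miR-92a, stood between 5644 and 9557 in the 9 libraries. Neither arm passed in any comparison: against day 30 at day 210 miR-92b-3p was at 0.29 ± 0.19 (adjusted p = 0.337) and miR-92b-5p at -0.71 ± 0.56 (adjusted p = 0.449).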

How the data were processed

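The deposited table holds a signal, the normalised read number per mature sequence, scaled per library by the authors, per the file headers. Per the labels, RNA was extracted with Trizol, libraries came from a TruSeq small RNA kit, and ACGT101-miR removed adapter dimers, junk, common RNA families and repeats. Aligner, miRNA database, build and scaling are not stated in any source used, so no positions are printed. Of 980 entries, 5 with the sequence and values of another were dropped. Between 88.1% and 92.7% of non-zero values were whole multiples of 1 read's step (tolerance 0.01), so read counts were not recovered. limma 3.58.1 (R 4.3.3) modelled all 9 libraries on the log2(value + 1) scale, with 1 mean for each age and a mean-variance trend, for the 630 entries with at least 5 in at least 3 libraries. Benjamini-Hochberg adjustment ran over all 630, with a threshold of 0.05. Ratios within a library were tested by exact permutation, two-sided. The added 1 shrinks fold changes of low values, but listing sequences under the limit at 0 can enlarge them. For mir-20b-2-p3 the log2 difference from day 30 at day 210 was -3.47, and -0.62 with the common floor. The procedure was tested on simulated data that held no limit of detection and no departing library, so that test does not cover either. Group values are means ± SD and log2 differences ± SE. Guide arms were set from textbook knowledge. Every member is named. Members, lists and tests were chosen with earlier results of these data known, so none of them is independent of these values.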

Additional observations from a re-analysis of the deposited data

How the results depend on the processing

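Of 591 recomputations of 33 named log2 differences under the alternatives, 518 kept their direction and side of the threshold, 29 lost a call, 36 gained one and 8 turned sign. Member calls between day 90 and day 30 (0) were 1 with the common floor, no mean-variance trend, sample weights or only the ages compared, and 0 to 1 leaving out 1 library. Between day 210 and day 30 (2) they were 1 with a pseudocount of 5, the stricter filter or the common floor, 8 with sample weights, 0 with only the ages compared, and 0 to 7 leaving out 1 library. Between day 210 and day 90 (2) they were 1 with the stricter filter or only the ages compared, 9 with sample weights, and 0 to 11 leaving out 1 library. With the common floor the call against day 30 was mir-363-2-p5 and the 2 against day 90 were mir-106a-p3 and mir-363-2-p5, so none of the calls of the text remained. The cause was not tested. Over all entries tested, whose number changes with the setting, calls ran from 1 to 81, 9 to 109 and 8 to 112 in the 3 comparisons, against 7, 58 and 51 of 630. With sample weights they were 81, 109 and 100 of 630, so calls rose over the whole table too. Without day 210 replicate 3 they were 20, 90 and 112 of 621. The signs of 3 small differences turned: miR-92a was at 0.080 against day 30 with sample weights, -0.081 against day 90 with equal library sums, and -0.22 to 0.17 and -0.050 to 0.34 leaving out 1 library, and miR-363 at -0.22 to 0.050 against day 30. Leaving out 1 library, the log2 ratio of miR-20a-5p to miR-20b ran from -0.077 to 0.018, that of miR-18b to mir-18b-p3 from -1.25 to -0.55 (-0.59 with the common floor), and the age difference in the miR-17 arm ratio from -0.16 to 0.013. Replicate numbers did not pair the libraries: deviations of same-numbered libraries correlated between -0.10 and 0.19, and 4 of 9 libraries correlated best with their own number. With the replicate block the member calls were 0, 1 and 1. The count test on recovered reads was not run, since too few values were whole reads, nor was the scaling by trimmed means of log ratios, whose weights need counts. Depth limits every member under about 10.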
